A study of Mus musculus with 19 samples.

Results

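The 66 mouse genes described here belong to families of enzymes that methylate or otherwise modify RNA, above all transfer RNA, although some Mettl products act on proteins. They are the RefSeq protein-coding genes whose symbols belong to the Trmt, Elp (Elongator), Qtrt, Tyw, Pus, Nsun and Mettl series, together with Trmu, out of 21887 protein-coding genes on the chromosomes of the peak lists. CBFA2T2 occupancy was measured by ChIP-seq in the mouse line NE-4C, neural stem cells deficient in p53, in which H3f3a, 1 of the genes for histone H3.3, had been knocked out in both lines used. H3.3K27M cells carried HA-tagged H3.3 with methionine in place of lysine 27, stably expressed on that background, and H3.3WT cells carried HA-tagged wild-type H3.3 on the same background. The series holds 19 samples, 11 from immunoprecipitation and 8 from input. The values below come from 1 CBFA2T2 library of H3.3K27M cells and 1 of H3.3WT cells, each set against input by the authors. The H3.3WT line with Cbfa2t2 knocked out was not analysed here. With 1 library per genotype and no replicate, no difference between the genotypes can be tested, and the sequencing depth behind the peak lists is unknown.

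Transfer RNA is the most heavily modified RNA of the cell. Modified bases in and beside the anticodon tune decoding and hold the reading frame, while methyl groups in the body of the molecule stabilise its fold. In messenger RNA, N6-methyladenosine (m6A), written by the METTL3 and METTL14 pair, marks transcripts for altered splicing, translation and decay, and it is known for its part in the timing of neural stem cell division. CBFA2T2 is a member of the MTG family of corepressors, which are brought to DNA by transcription factors and recruit histone deacetylase complexes. A peak of such a factor shows occupancy and not expression.

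The deposited lists hold 8272 peaks in H3.3K27M and 6920 in H3.3WT. Neither list has a peak within 5 kb of H3f3a, which says nothing on the knockout, since occupancy is not expression. Of 9 genes that mark neural stem cells, 3 (Vim, Nes and Sox1) had a peak at a gene end in H3.3K27M and 1 (Sox1) in H3.3WT. These counts stand beside 28.6% and 24.8% of all protein-coding genes. Sox2, Pax6, Msi1, Prom1, Fabp7 and Sox9 had none in either list. Peaks of a corepressor cannot settle the labelled cell type.

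Folds are the authors' enrichment of a peak over input, and −log10 q is the peak caller's own measure of confidence. A gene counted as marked when the summit of a peak, its highest point, lay within 1 kb of either end of the gene. In H3.3K27M 40 of the 66 genes (60.6%) were marked, beside 28.6% of all protein-coding genes. In H3.3WT 37 (56.1%) were marked, beside 24.8% of all protein-coding genes. The same 32 genes (48.5%) were marked in both lists, beside 22.2% of all genes. A peak in H3.3K27M alone was found at 8 genes (12.1%; 6.39% of all genes) and a peak in H3.3WT alone at 5 (7.58%; 2.6% of all genes). The remaining 21 genes had none, an amount of 31.8% beside 68.8% of all genes. RNA modification genes were thus marked about as often in both genotypes, and more often than protein-coding genes at large in each. No test was made of that excess, because the genes were chosen with results of these data known.

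**Figure D1:**
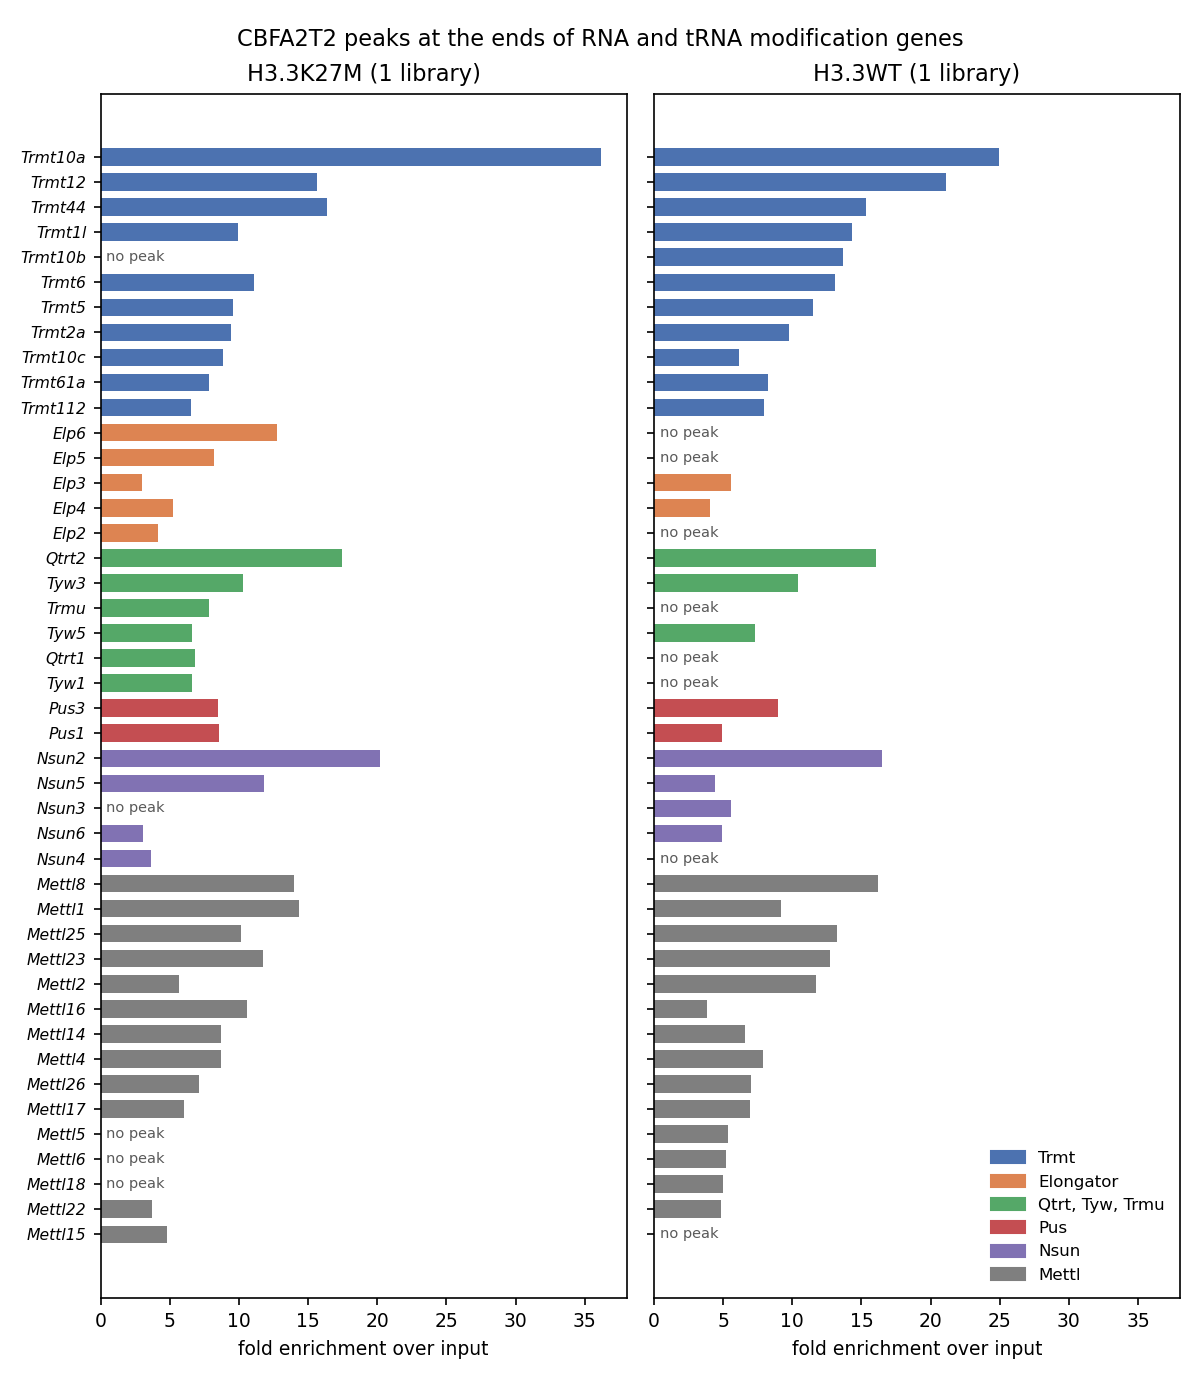
Fold enrichment of the CBFA2T2 peak over input (horizontal axis, linear) at the ends of 44 of the 45 RNA and tRNA modification genes with a peak in at least 1 list, H3.3K27M on the left and H3.3WT on the right. Colours give the gene group, each bar is 1 peak of 1 library with no error bar, and "no peak" means no summit within 1 kb of a gene end. Trmt10a stands highest, at 36.2 fold in H3.3K27M and 25.0 in H3.3WT.

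The promoters that carry the results are shown as 300 bases each, from 250 before to 50 after the listed start, 5′ to 3′ on the gene's strand, from RefSeq on GRCm38.p6 (mm10). Capitals mark matches to the transcription factor motifs that are spelled out with the motif counts. The first 4 belong to the genes marked in both lists with the highest folds in H3.3K27M, among those with a listed start.
Trmt10a, chr3:138143267-138143566, plus strand: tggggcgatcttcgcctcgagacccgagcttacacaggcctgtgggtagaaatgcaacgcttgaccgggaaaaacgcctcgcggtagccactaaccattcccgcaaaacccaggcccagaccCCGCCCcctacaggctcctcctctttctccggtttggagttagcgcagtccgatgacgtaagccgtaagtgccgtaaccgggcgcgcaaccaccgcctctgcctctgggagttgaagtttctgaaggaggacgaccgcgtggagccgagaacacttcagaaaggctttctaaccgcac
Nsun2, chr13:69611766-69612065, plus strand: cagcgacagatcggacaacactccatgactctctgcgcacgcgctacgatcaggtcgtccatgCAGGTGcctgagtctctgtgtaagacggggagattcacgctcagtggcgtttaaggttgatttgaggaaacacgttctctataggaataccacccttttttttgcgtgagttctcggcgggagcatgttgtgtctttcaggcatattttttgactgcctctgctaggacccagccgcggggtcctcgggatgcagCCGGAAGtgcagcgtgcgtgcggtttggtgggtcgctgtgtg
Qtrt2, chr16:43889627-43889926, minus strand: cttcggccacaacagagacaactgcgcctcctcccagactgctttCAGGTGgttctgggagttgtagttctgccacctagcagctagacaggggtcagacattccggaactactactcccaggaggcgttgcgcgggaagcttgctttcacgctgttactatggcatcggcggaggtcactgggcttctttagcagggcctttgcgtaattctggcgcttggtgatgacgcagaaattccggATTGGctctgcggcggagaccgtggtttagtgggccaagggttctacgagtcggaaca
Trmt44, chr5:35575021-35575320, minus strand: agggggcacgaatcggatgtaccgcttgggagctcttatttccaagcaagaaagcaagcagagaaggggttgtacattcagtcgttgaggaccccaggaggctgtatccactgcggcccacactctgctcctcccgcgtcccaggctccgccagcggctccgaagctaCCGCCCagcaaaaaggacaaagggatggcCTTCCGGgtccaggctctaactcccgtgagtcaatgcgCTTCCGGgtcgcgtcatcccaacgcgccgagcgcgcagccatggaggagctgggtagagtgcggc
In Trmt10a the summit lay 27 bases before the start in H3.3K27M and 90 bases after it in H3.3WT. Nsun2 had it 78 bases before the start in H3.3K27M and 57 before in H3.3WT. Qtrt2 had it 128 bases before the start in H3.3K27M and 171 before in H3.3WT. In all these genes but Trmt10a, both summits therefore fall within the letters shown; at Trmt44 they lay 1 and 20 bases before the start in H3.3K27M and H3.3WT.

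The next 3 promoters belong to genes with a peak in 1 list alone. Qtrt1 and Trmu were marked in H3.3K27M alone, with the summit 5 and 32 bases before the start, and Trmt10b in H3.3WT alone, with the summit 36 bases before the start.
Qtrt1, chr9:21411587-21411886, plus strand: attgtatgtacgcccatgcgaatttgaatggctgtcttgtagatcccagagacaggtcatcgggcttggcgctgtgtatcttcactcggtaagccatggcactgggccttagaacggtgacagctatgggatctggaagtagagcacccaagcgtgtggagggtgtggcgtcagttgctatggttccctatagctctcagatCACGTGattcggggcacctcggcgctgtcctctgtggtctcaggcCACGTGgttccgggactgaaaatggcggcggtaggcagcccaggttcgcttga
Trmu, chr15:85879077-85879376, plus strand: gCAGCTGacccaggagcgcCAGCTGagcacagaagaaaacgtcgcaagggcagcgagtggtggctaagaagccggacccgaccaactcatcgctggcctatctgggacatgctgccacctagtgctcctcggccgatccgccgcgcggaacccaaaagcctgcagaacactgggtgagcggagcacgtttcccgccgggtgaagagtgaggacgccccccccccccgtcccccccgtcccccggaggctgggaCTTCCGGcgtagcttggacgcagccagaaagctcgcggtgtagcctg
Trmt10b, chr4:45296918-45297217, plus strand: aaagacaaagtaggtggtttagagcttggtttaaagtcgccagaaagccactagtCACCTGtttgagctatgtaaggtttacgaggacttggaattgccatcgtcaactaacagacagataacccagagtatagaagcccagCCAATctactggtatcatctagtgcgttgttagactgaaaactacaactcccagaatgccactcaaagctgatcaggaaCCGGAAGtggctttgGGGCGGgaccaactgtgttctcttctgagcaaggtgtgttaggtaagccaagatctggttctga
Mettl3 is shown because its start lies 3617 bp inside the annotated gene, so that the count by gene ends passes over its peaks.
Mettl3, chr14:52305075-52305374, minus strand: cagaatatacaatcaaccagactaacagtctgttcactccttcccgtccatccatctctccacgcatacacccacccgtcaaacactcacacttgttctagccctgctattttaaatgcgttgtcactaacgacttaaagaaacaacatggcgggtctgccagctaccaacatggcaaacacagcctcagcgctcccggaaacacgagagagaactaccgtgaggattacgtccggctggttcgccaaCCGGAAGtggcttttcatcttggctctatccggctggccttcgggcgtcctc

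Among the 16 Trmt genes, which encode methyltransferases of tRNA bases and riboses and their partners, 10 were marked in H3.3K27M and 11 in H3.3WT, and the 10 were among the 11. These counts, and those of the gene groups below, stand beside 28.6% of all genes in H3.3K27M and 24.8% in H3.3WT. Trmt10a, which methylates a guanosine of cytosolic tRNAs, had 36.2 fold in H3.3K27M and 25.0 in H3.3WT, with −log10 q of 173 and 113. Its peaks span chr3:138143214-138144323 in H3.3K27M and chr3:138143186-138144175 in H3.3WT. This was the highest fold of all 66 genes in both lists, at percentile 99.3 of all peaks in H3.3K27M and 97.7 in H3.3WT. The end of Mttp lies at the same summit.

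Trmt12, an enzyme of wybutosine synthesis, had 15.7 fold in H3.3K27M and 21.1 in H3.3WT. Trmt44, related to the yeast enzyme that methylates a uridine ribose of serine tRNA, had 16.4 fold in H3.3K27M and 15.3 in H3.3WT. Trmt6 had 11.1 fold in H3.3K27M and 13.1 in H3.3WT. Its product joins that of Trmt61a to form the complex that methylates an adenosine of the T loop, and Trmt61a had 7.82 fold in H3.3K27M and 8.28 in H3.3WT. Both genes of this complex were thus marked in both genotypes, Trmt6 at a site shared with Mcm8. With summits closer to another gene left out, Trmt6 was marked in H3.3WT alone. Trmt1l, a paralogue of Trmt1, had 9.91 fold in H3.3K27M and 14.3 in H3.3WT. Trmt5, which methylates the guanosine next to the anticodon, had 9.57 and 11.5 fold in H3.3K27M and H3.3WT. Trmt2a, which makes 5-methyluridine in the T loop, had 9.42 fold in H3.3K27M and 9.76 in H3.3WT. All 3 had the higher fold in H3.3WT, at sites shared with Swt1 (Trmt1l), Slc38a6 (Trmt5) and Ranbp1 (Trmt2a). Trmt10c, a subunit of mitochondrial RNase P that also methylates mitochondrial tRNAs, had 8.82 fold in H3.3K27M and 6.15 in H3.3WT. Trmt112, the activating partner of several methyltransferases, had 6.55 fold in H3.3K27M and 7.96 in H3.3WT, at a site shared with the ends of Esrra and Prdx5.

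Trmt10b, a paralogue of Trmt10a, had no H3.3K27M peak at a gene end and a peak of 13.7 fold in H3.3WT, with −log10 q of 23.3. The nearest H3.3K27M summit, of 8.63 fold, lay 4407 bp beyond the far gene end and 23409 bp from the H3.3WT summit. Trmt10b had the highest fold of the 5 genes marked in H3.3WT alone; the other 4 lay between 5.02 and 5.60 fold.

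All 5 Elongator genes reported here (Elp2 to Elp6) were marked in H3.3K27M and 2 of them in H3.3WT. Elongator adds the carboxymethyl group from which the modified wobble uridines of many tRNAs are built. Elp3, the catalytic subunit, had 2.97 fold in H3.3K27M, the lowest fold among the marked genes of the set in that list, and 5.60 fold in H3.3WT. Elp4, of the accessory ring, had 5.21 fold in H3.3K27M and 4.01 in H3.3WT. Both genes thus held weak peaks, at sites shared with Nuggc (Elp3) and Immp1l (Elp4).

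Elp6 and Elp5, the other subunits of the accessory ring, and Elp2, a subunit of the core, were marked in H3.3K27M alone when counted by gene ends. Elp6 had 12.7 fold in H3.3K27M with the summit 978 bp from the gene end. A peak of 12.0 fold in H3.3WT overlapped it, with its summit 50 bp away and 1028 bp from the gene end, just outside the window. At Elp5 the H3.3K27M peak of 8.21 fold overlapped an H3.3WT peak of 10.5 fold whose summit lay 1158 bp from the gene end. An end of Ctdnep1 lay at both summits of Elp5. Counted by listed starts, both genes were marked in both lists, so their place in 1 list alone rests on the window. Elp2 had 4.12 fold in H3.3K27M, with −log10 q of 5.17 and the end of Slc39a6 at the summit, and no H3.3WT summit within 1 kb of a gene end; the nearest lay 209605 bp away.

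**Figure D2:**
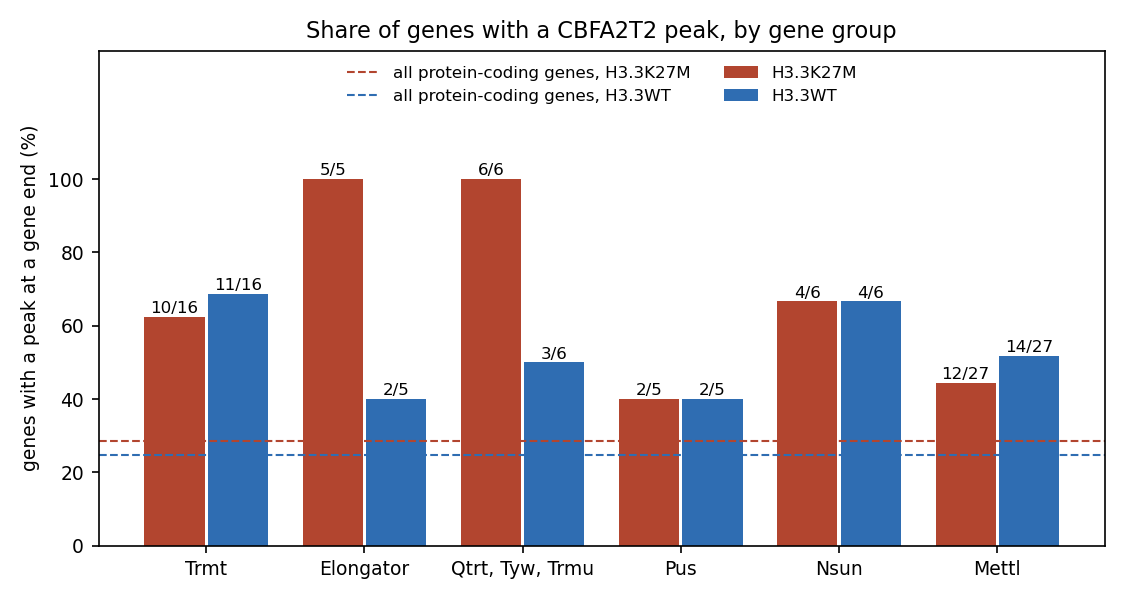
Percent of the genes of each group with a CBFA2T2 peak summit within 1 kb of a gene end (vertical axis, from 0), H3.3K27M bars left of H3.3WT bars, with counts above the bars and dashed lines for all protein-coding genes (28.6% in H3.3K27M, 24.8% in H3.3WT). All 12 pairs of group and genotype lie above the line of their genotype, and all genes of the Elongator group (5, with 2 in H3.3WT) and of the Qtrt, Tyw and Trmu group (6, with 3 in H3.3WT) are marked in H3.3K27M.

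All 6 genes of queuosine, wybutosine and mitochondrial 2-thiouridine synthesis were marked in H3.3K27M and 3 in H3.3WT. Queuosine replaces the wobble guanosine of certain tRNAs and is inserted by the products of Qtrt1 and Qtrt2. Qtrt2, the partner subunit, had 17.4 fold in H3.3K27M and 16.05 in H3.3WT, with −log10 q of 69.1 and 55.6, at a site shared with Ccdc191. Qtrt1, the catalytic subunit, had 6.80 fold in H3.3K27M, with −log10 q of 15.7, and no peak at its ends in H3.3WT. The nearest H3.3WT summit lay 4568 bp beyond the far gene end and 13015 bp from the H3.3K27M summit. The subunits of this enzyme therefore differed in class: Qtrt2 was marked in both lists and Qtrt1 in 1. Trmu, which thiolates the wobble uridine of mitochondrial tRNAs, had 7.84 fold in H3.3K27M, with −log10 q of 17.5, and no H3.3WT summit nearer than 19697 bp.

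Wybutosine, a tricyclic guanosine beside the anticodon of phenylalanine tRNA, is made in steps by the products of Trmt5, Tyw1, Trmt12, Tyw3, Lcmt2 and Tyw5. All 6 genes of this pathway were marked in H3.3K27M and 5 in H3.3WT. Counting listed starts too, all 6 were marked in each. Ends of other genes lay at the H3.3K27M summits of Trmt5 (Slc38a6), Tyw1 (Sbds), Tyw3 (Cryz) and Tyw5 (Maip1). Such peaks cannot be given to 1 of the genes. Adal had the same folds as Lcmt2 in both lists. Tyw3 had 10.3 fold in H3.3K27M and 10.4 in H3.3WT. Tyw5, the hydroxylase of the pathway, had 6.59 fold in H3.3K27M and 7.31 in H3.3WT. Lcmt2, whose product acts late in the pathway, had 6.13 fold in H3.3K27M and 9.09 in H3.3WT. Tyw1, which builds the tricyclic base, had 6.61 fold in H3.3K27M, 11 bp after a listed start. In H3.3WT the nearest peak, of 5.78 fold, lay 1294 bp from the gene end beside another listed start, and the peaks did not overlap. The steps of the pathway were grouped with the values known, and 6 genes are too few to set against the share of all genes.

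Of the 5 pseudouridine synthase genes, 2 were marked, both in each list (40%, beside 28.6% and 24.8% of all genes). Pus3, which acts in the anticodon arm, had 8.45 fold in H3.3K27M and 8.95 in H3.3WT, at a site shared with Ddx25. Pus1, which acts on nuclear and mitochondrial tRNAs, had 8.57 fold in H3.3K27M and 4.91 in H3.3WT. Pus10 had no peak at a gene end, but its listed starts carried 5.80 fold in H3.3K27M and 6.67 in H3.3WT, with summits 7518 and 7603 bp inside the annotated gene. An end of Pex13 lay within 1 kb of both summits. At Pus7, whose product also modifies messenger RNA, the nearest summits lay outside the window at 4059 bp in H3.3K27M and 4009 bp in H3.3WT, and Pus7l had none nearby.

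Of the 6 Nsun genes, which encode 5-methylcytosine methyltransferases, 4 were marked in each list and 3 in both. Nsun2, the main tRNA enzyme of the family, had 20.2 fold in H3.3K27M and 16.5 in H3.3WT, with −log10 q of 59.9 and 46.5, at a site shared with Srd5a1. Nsun5, which methylates the rRNA of the large subunit, had 11.8 fold in H3.3K27M and 4.38 in H3.3WT. Nsun6, which methylates the acceptor stem of some tRNAs, had 3.04 fold in H3.3K27M and 4.91 in H3.3WT, at a site shared with Arl5b. The family thus held strong and weak peaks. Nsun4, which methylates mitochondrial rRNA, had 3.60 fold in H3.3K27M alone, with −log10 q of 4.75. Nsun3, which methylates the mitochondrial methionine tRNA, had 5.60 fold in H3.3WT alone, with −log10 q of 5.86. Nsun7 had none.

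The 27 Mettl genes encode methyltransferases of unlike substrates, and 12 were marked in H3.3K27M, 14 in H3.3WT and 11 in both. Of the 10 whose products act on RNA, 7 were marked in H3.3K27M and 8 in H3.3WT, and all 10 had a peak in at least 1 list once listed starts were counted. Of the 8 that act on proteins, 2 were marked in H3.3K27M and 3 in H3.3WT, beside 28.6% and 24.8% of all genes. With listed starts these counts were 3 and 4, and 4 of the 8 had no peak. Of the 9 whose substrate is not given here, 3 were marked in each list and 6 in neither, with or without listed starts. The split by substrate was drawn with the values known and was not tested.

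Mettl3, the catalytic subunit of the m6A writer, had no summit at a gene end. At its listed start it had 5.17 fold in H3.3K27M and 11.05 in H3.3WT, with −log10 q of 15.2 and 25.3 and summits 86 and 10 bp after the start. Mettl14, its RNA-binding partner, had 8.71 fold in H3.3K27M and 6.56 in H3.3WT, with −log10 q of 28.3 and 15.5. The higher fold of the pair of lists thus lay in H3.3WT at Mettl3 and in H3.3K27M at Mettl14. Mettl16, which methylates a spliceosomal RNA and the Mat2a transcript, had 10.6 fold in H3.3K27M and 3.83 in H3.3WT, with −log10 q of 24.5 and 4.73. Mettl4, known to methylate a small nuclear RNA, had 8.70 fold in H3.3K27M and 7.91 in H3.3WT. Mettl5, which methylates the rRNA of the small subunit, had 5.37 fold in H3.3WT alone.

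Mettl1, which makes 7-methylguanosine in tRNA, had 14.3 fold in H3.3K27M and 9.16 in H3.3WT, at a site shared with Eef1akmt3. Wdr4, the gene of its partner subunit, had no peak at its ends in either list. Mettl8, which makes 3-methylcytidine in mitochondrial tRNAs, had 13.95 fold in H3.3K27M and 16.2 in H3.3WT, at a site shared with Dcaf17. Mettl2 and Mettl6 are its cytosolic relatives. Mettl2 had 5.66 fold in H3.3K27M and 11.7 in H3.3WT, while Mettl6 had 5.18 fold in H3.3WT alone, at a site shared with Eaf1. Mettl15, which methylates mitochondrial rRNA, had 4.80 fold in H3.3K27M alone, at a site shared with Kif18a.

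The other marked Mettl genes held peaks at both ends of the range. Mettl23, a histone arginine methyltransferase, had 11.7 fold in H3.3K27M and 12.7 in H3.3WT, beside Jmjd6. Mettl25 had 10.1 fold in H3.3K27M and 13.3 in H3.3WT, beside Ccdc59. Mettl26 had 7.07 fold in H3.3K27M and 6.98 in H3.3WT. Mettl17, an assembly factor of the mitochondrial ribosome, had 6.05 and 6.95 fold in H3.3K27M and H3.3WT, and Mettl22, a protein lysine methyltransferase, 3.67 and 4.87 fold. Mettl18, a histidine methyltransferase of a ribosomal protein, had 5.02 fold in H3.3WT alone. Mettl9, another histidine methyltransferase, had 6.17 fold in H3.3K27M and 9.31 in H3.3WT at its listed start only.

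Over the marked genes of the set, the median fold was 8.71 in H3.3K27M and 8.28 in H3.3WT, beside 6.29 and 6.91 over all marked protein-coding genes. The median −log10 q was 24.1 in H3.3K27M and 20.6 in H3.3WT, beside 12.8 in each list over all marked genes. At least 10 fold was reached by 14 of the 66 genes in H3.3K27M (6.63% of all genes) and by 15 in H3.3WT (7.02% of all genes). Peaks in 1 list alone were weaker, with median folds of 6.71 at the 8 genes of H3.3K27M and 5.37 at the 5 of H3.3WT. At the genes of the set marked in both lists the medians were 9.49 in H3.3K27M and 9.05 in H3.3WT. The 8 include Elp5 (8.21 fold) and Elp6 (12.7 fold), whose place in 1 list alone rests on the window. Over all genes marked in 1 list alone the medians were 4.44 in H3.3K27M and 4.66 in H3.3WT, beside 7.29 and 7.33 over all genes marked in both.

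**Figure D3:**
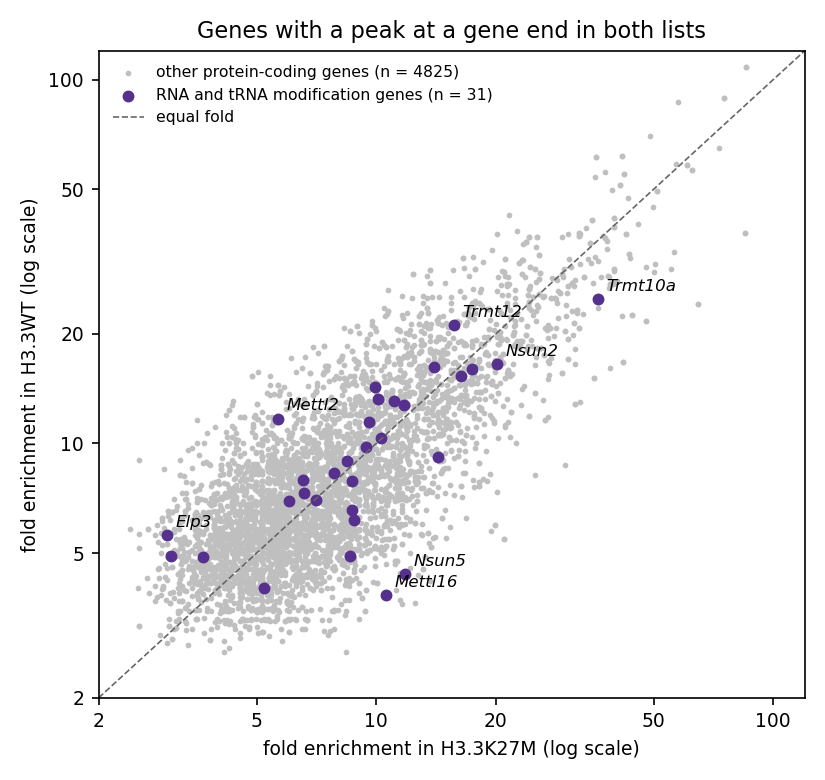
Fold enrichment over input in H3.3K27M (horizontal, log scale) and H3.3WT (vertical, log scale) for the 4857 protein-coding genes with a peak at a gene end in both lists; purple points are 31 of the 32 RNA and tRNA modification genes, grey points the other genes and the dashed line equal fold. Mettl16 (10.6 and 3.83) and Nsun5 (11.8 and 4.38) lie farthest below the line among the purple points, Mettl2 (5.66 and 11.7) and Elp3 (2.97 and 5.60) farthest above it.

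At the 32 genes marked in both lists, the fold was higher in H3.3K27M at 13 (40.6%) and higher in H3.3WT at 19 (59.4%). Over all 4857 genes marked in both, the shares were 46.6% and 53.4%. The folds of the lists were called separately and were not divided into a change. At all 32 genes the peaks overlapped by at least 1 bp, and at 31 of them by at least 50% of each peak, Trmt61a being the exception. Over all 4857 genes marked in both, 4792 overlapped by at least 1 bp and 4412 by at least 50% of each peak. The summits lay a median of 28.5 bp apart, at most 153 bp, beside a median of 41 bp over all genes marked in both. The lists therefore placed these peaks at the same sites, as they did at most of all genes marked in both.

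A start with a strand was listed for 52 of the 66 genes. Every marked gene among them, 31 in H3.3K27M and 30 in H3.3WT, had its summit within 1 kb of a listed start, beside 92.3% and 92.8% of all marked genes. The median distance was 65 bp in H3.3K27M and 48.5 bp in H3.3WT, beside 98 and 92 bp over all marked genes. Within the 300 bases from 250 before to 50 after a start lay 22 of 31 summits in H3.3K27M (71.0%) and 24 of 30 in H3.3WT, beside 56.9% and 61.5% of all marked genes. These peaks thus lay at promoters. The farthest was at Pus3, whose summits lay 889 bp after the start in H3.3K27M and 877 bp after it in H3.3WT. Pus3 had 2 peaks in each list, and these are the summits of those with the higher −log10 q, shared with Ddx25. With a window of 500 bp Pus3 stayed marked in both lists, through its other peaks. Whether a summit downstream of a start lies in an exon or an intron was not determined.

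**Figure D4:**
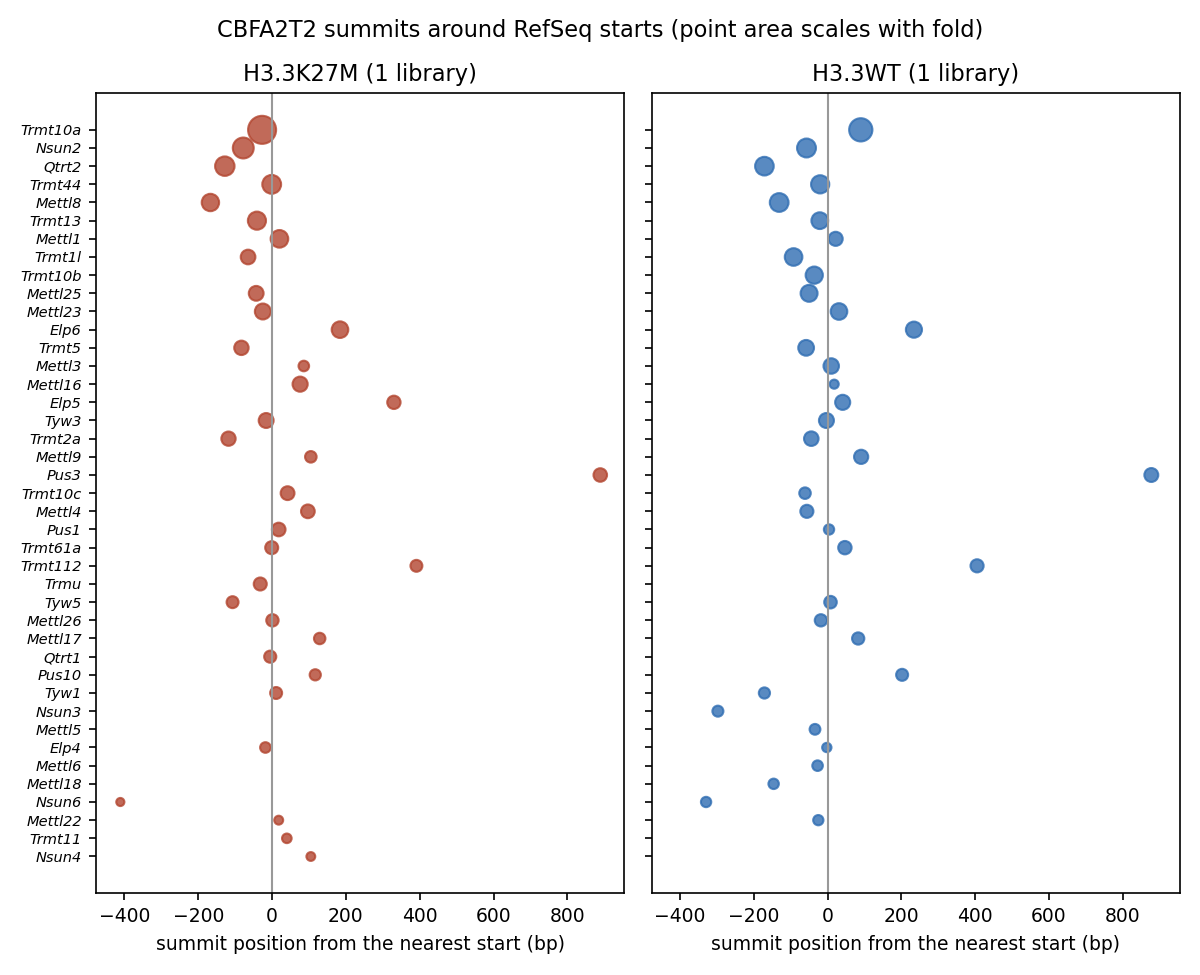
Position of the CBFA2T2 summit relative to the nearest listed start of each gene (horizontal axis, bp, positive downstream), H3.3K27M left and H3.3WT right, with genes ordered by fold and point area rising with fold over input. Most points lie close to 0, with median distances of 65 bp in H3.3K27M and 48.5 bp in H3.3WT at the genes marked by their ends, and Pus3 lies farthest out at 889 and 877 bp.

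Many of the sites were shared with a neighbour. Another protein-coding gene ended within 1 kb of the summit at 23 of 40 marked genes in H3.3K27M (57.5%) and 21 of 37 in H3.3WT (56.8%), beside 34.7% and 36.8% of all marked genes. A listed start of another gene on the opposite strand lay there at 15 of 31 genes in H3.3K27M (48.4%) and 16 of 30 in H3.3WT (53.3%), beside 25.1% and 27.5% of all marked genes. At such sites a peak cannot be given to 1 of the genes. With summits closer to another gene left out, 21 genes (31.8%) in place of 32 were marked in both lists, beside 17.4% of all genes. In H3.3K27M 28 genes (42.4%) were then marked and in H3.3WT 27 (40.9%), beside 24.1% and 20.6% of all genes. Qtrt2, Mettl1, Mettl8, Trmt1l and Trmt5 were among those with no peak left. Trmt6 and Trmt2a were then marked in H3.3WT alone, and Mettl25 in H3.3K27M alone.

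Counting listed starts beside gene ends changed the class of 8 genes. Elp5, Elp6 and Tyw1 passed from H3.3K27M alone to both lists, and Mettl3, Mettl9, Pus10 and Trmt13 from no peak to both. Trmt13, which methylates riboses of the acceptor stem, had 15.2 fold in H3.3K27M and 12.95 in H3.3WT, with −log10 q of 78.8 and 51.2, at a start shared with Sass6 and 18826 bp inside the annotated gene. Trmt11, which makes N2-methylguanosine with the product of Trmt112, passed to H3.3K27M alone, with 4.25 fold. By ends or starts, 45 genes were marked in H3.3K27M (30.9% of all genes), 44 in H3.3WT (26.7%) and 39 in both (23.9%). A peak in H3.3K27M alone was then left at 6 genes (7.03% of all genes) and in H3.3WT alone at 5 (2.82%). The 6 were Nsun4, Elp2, Mettl15, Qtrt1, Trmu and Trmt11. By listed starts alone, over the 52 genes that have 1, the counts were 36 in H3.3K27M and 37 in H3.3WT (30.9% and 26.7% of all genes), with 4 and 5 in 1 list alone (7.03% and 2.85%).

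The 16 genes with no peak by ends or starts were Mettl11b, Mettl21a, Mettl21c, Mettl21e, Mettl24, Mettl27, Mettl7a1, Mettl7a2, Mettl7a3, Mettl7b, Nsun7, Pus7, Pus7l, Trmt1, Trmt2b and Trmt9b. Of these, Mettl21c, Mettl21e, Mettl7a3, Trmt1 and Trmt9b have no listed start and could be counted by ends only. Trmt1, which makes dimethylguanosine in tRNA, was just outside the window, with summits 1384 bp from its end in H3.3K27M and 1329 bp in H3.3WT, of 11.5 and 11.2 fold. Inside Trmt1 lay 2 peaks in each list, of up to 13.99 fold in H3.3K27M and 11.9 in H3.3WT. In H3.3WT the summit of Mettl5, 985 bp from the gene end, was just inside the window. The other genes without a peak included 10 of the 27 Mettl genes, among them Mettl21a, which methylates heat shock proteins, and the Mettl7 genes, whose products methylate thiols.

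Genes of the same pathways outside the symbol series were marked as well. Of 86 such genes, 68 (79.1%) were marked in H3.3K27M and 60 (69.8%) in H3.3WT, 58 of them in both. Of all protein-coding genes, 28.6% were marked in H3.3K27M, 24.8% in H3.3WT and 22.2% in both. The counts of each group below stand beside these same shares, and no test was made. Of the 15 partners, erasers and readers of m6A, 13 were marked in H3.3K27M and 11 in H3.3WT. Fto, a demethylase, had 16.6 fold in H3.3K27M and 32.4 in H3.3WT. The writer subunit Virma had 11.9 fold in H3.3K27M and 10.5 in H3.3WT. Its partner Cbll1 had 9.24 fold in H3.3K27M and 15.8 in H3.3WT, and Rbm15b, which brings the writer to its targets, 9.73 and 8.30 fold. Peaks thus covered writer and eraser genes alike. Among the reader genes, Ythdf3 (9.04 fold) and Ythdf2 (3.54 fold) were marked in H3.3K27M alone. Ythdf1 had 11.5 fold in H3.3K27M and 3.71 in H3.3WT, Ythdc1 had 4.33 and 7.32 fold, and Ythdc2 had no peak at its ends in either list. Of 5 genes for the methylation of RNA caps, 4 were marked in each list. Rnmt, which methylates the cap guanosine, had 11.3 fold in H3.3K27M and 8.63 in H3.3WT. Tgs1, Cmtr1 and Ramac lay between 3.33 and 6.40 fold in H3.3K27M and between 6.83 and 7.32 fold in H3.3WT.

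The wobble uridine pathway continues from Elongator to thiolation. Among 10 genes of thiolation and its partners 8 were marked in each list, 7 of them in both. Ctu2 had 26.5 fold in H3.3K27M and 17.6 in H3.3WT, and Ctu1, with which it forms the thiolase, 23.2 and 19.1 fold. Mocs3, which activates the sulphur carrier, had 12.9 fold in H3.3K27M and 15.05 in H3.3WT. Dph3, a partner of the Elongator cycle, had 8.76 and 7.77 fold in H3.3K27M and H3.3WT. Nfs1, which supplies the sulphur, had 6.32 fold in H3.3K27M alone. By gene ends, Gtpbp3, of the mitochondrial pathway, had 3.73 fold in H3.3WT alone. Mto1, also of the mitochondrial pathway, had no peak at its ends in either list. Counting listed starts too, all 10 genes were marked in H3.3K27M, Mto1 and Gtpbp3 among them, 8 in H3.3WT and 8 in both.

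Of 8 genes for tRNA editing and dihydrouridine, 8 were marked in H3.3K27M and 7 in H3.3WT. Dus3l, a dihydrouridine synthase, had 26.9 fold in H3.3K27M and 20.6 in H3.3WT. Its relatives Dus4l and Dus2 had 13.8 and 7.40 fold in H3.3K27M, and 5.21 and 15.8 fold in H3.3WT. The related synthases thus had their higher fold in different lists. The deaminase gene Adat1 had 9.97 fold in H3.3K27M and 14.2 in H3.3WT, and Adat2 5.49 fold in H3.3K27M alone. Of 13 other genes of tRNA methylation, 8 were marked in H3.3K27M and 6 in H3.3WT. Ftsj1, a ribose methyltransferase of the anticodon loop, had 16.3 fold in H3.3K27M and 26.3 in H3.3WT. Thumpd3 had 11.7 fold in H3.3K27M and 12.3 in H3.3WT, and the demethylase gene Alkbh3 had 12.4 fold in each. Thada had 4.44 fold in H3.3K27M and 10.7 in H3.3WT. Trdmt1, a cytosine methyltransferase, and Wdr6, the partner of Ftsj1, were marked in H3.3K27M alone, at 3.99 and 3.56 fold.

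Of 10 genes for threonylcarbamoyl, isopentenyl and thiomethyl adenosine, 6 were marked in H3.3K27M and 5 in H3.3WT. Yrdc, which makes the threonylcarbamoyl donor, had 11.8 fold in H3.3K27M and 15.7 in H3.3WT. Osgep, which transfers that group, had 10.8 fold in H3.3K27M and 8.02 in H3.3WT. Gon7 and Cdkal1 lay between 5.58 and 7.16 fold in both lists. Cdk5rap1 (5.95 fold) and Osgepl1 (4.03 fold) were marked in H3.3K27M alone and Trit1 (3.76 fold) in H3.3WT alone. Among 10 genes of small nucleolar ribonucleoproteins and further pseudouridine synthases, 7 were marked in each list. Gar1, a structural subunit, had 20.8 fold in H3.3K27M and 16.6 in H3.3WT. Trub1, Trub2 and Rpusd4, all synthases, lay between 7.59 and 11.98 fold in H3.3K27M and between 6.35 and 11.5 fold in H3.3WT. In contrast to these, Dkc1, the catalytic subunit beside Gar1, had no peak in either list.

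Of 15 genes of rRNA methylation and acetylation, 14 were marked in H3.3K27M and 12 in H3.3WT. Emg1, a methyltransferase of the small subunit, had 25.4 fold in H3.3K27M and 18.3 in H3.3WT. Bud23, which pairs with the product of Trmt112, had 21.0 fold in H3.3K27M and 5.45 in H3.3WT. Mrm3, which acts on mitochondrial rRNA, had 18.1 fold in H3.3K27M and 8.87 in H3.3WT. All 3 had the higher fold in H3.3K27M, whereas Ftsj3, a ribose methyltransferase of the nucleolus, had 11.6 fold in H3.3K27M and 14.8 in H3.3WT. Tfb1m (6.47 fold) and Mrm1 (4.25 fold), both of mitochondrial rRNA, were marked in H3.3K27M alone. Over the 86 genes, 10 were marked in H3.3K27M alone and 2 in H3.3WT alone, beside 6.39% and 2.6% of all genes. By ends or listed starts, 74 of the 86 were marked in H3.3K27M, 65 in H3.3WT and 63 in both. The shares of all genes were 30.9%, 26.7% and 23.9%. Folds of the 86 genes are those at gene ends, and ends of neighbouring genes were not counted for them.

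Motifs were searched on both strands of 44 listed promoters of the 36 genes of the set that have a listed start and a peak at a gene end in at least 1 list. The ETS letters CCGGAAG were found in 17 of them (38.6%), beside 23.6% of 6906 promoters of all marked genes and 11.6% of all 21263 promoters. They are the capitals CCGGAAG or CTTCCGG in the promoters of Nsun2, Trmt44, Trmu and Trmt10b shown above, and Mettl3, which is outside this count, carries them too. The SP and KLF letters GGGCGG also stood in 17 (38.6%), beside 64.6% of promoters of all marked genes and 46.2% of all. ETS letters were thus more frequent than among marked genes at large and SP and KLF letters less frequent, with no test made. The base composition was alike, with a median GC content of 60.7% beside 61.3% over promoters of all marked genes, and a median of 24 beside 22 CpG.

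The E-box letters CACGTG, carried in a pair by Qtrt1, were found in 15.9% of these promoters, beside 11.4% for all marked genes and 7.84% for all. CAGCTG, carried in a pair by Trmu, was found in 20.5%, beside 13.0% and 15.6%. CACCTG was found in 18.2%, beside 15.2% and 19.7%, so that its share lay above the promoters of marked genes and below all promoters. The NFY letters CCAAT stood in 40.9%, beside 39.1% and 38.2%. The CRE letters TGACGTCA stood in 9.09%, beside 4.24% and 2.23%, and the BANP letters CTCGCGAG in 6.82%, beside 2.46% and 1.24%. For NRF1 (GCGCATGCG), YY1 (AAGATGGCG) and ZNF143 (ACTACANTT) the share was 4.55% each, or 2 promoters, beside 4.19% to 4.37% for all marked genes. The letters CACGTG and those of CAGCTG, CRE and BANP read the same on both strands, and the YY1 letters can overlap the end of an ETS match. Qtrt2 had CACCTG and CCAAT letters but no ETS letters, and Trmt10a had SP and KLF letters only. A match of letters is not a bound site.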

How the data were processed

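CBFA2T2 ChIP-seq peak lists of 1 H3.3K27M and 1 H3.3WT library were used as the authors deposited them. Per the submitters' processing notes, Trim Galore and MACS2 were used, with build mm10; aligner, versions and thresholds are not given in the sources used here. The deposited columns hold the fold enrichment at the summit over input (a ratio), the −log10 of the p-value and of the q-value, and a score that is the whole part of 10 times −log10 q. The lists end near a q-value of 0.05. Depth is unknown.

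Gene ends came from RefSeq (GRCm38.p6), and starts with a strand from its promoter table, which holds 63 promoters of 52 of the 66 genes. It holds none for 14, among them Mettl21c, Mettl21e, Mettl15, Trmt6, Mettl14, Nsun5, Trmt9b, Trmt1, Mettl2, Elp3, Trmt12, Mettl7a3 and Elp2. Python 3.11.15 with pandas 2.3.3 assigned a peak where its summit lay within 1 kb of a gene end. Where several did, the peak with the highest −log10 q is given. The assignment was checked on simulated peaks. A called gene is one with such a peak.

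The values of 1 of the 66 genes are not reported here. Genes, lists and groups were chosen with earlier results of these data known. Of the 66, values are given for all remaining genes marked by an end or a listed start. Of the further genes, they are given for the 4 highest −log10 q of each list and those marked in 1 list alone. Ythdf1, Ythdc1, Ythdc2, Mto1, Wdr4, Lcmt2 and Dkc1 were added after their values were seen. Of 87 further genes listed, 86 were found and Trp53rk was not.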

Additional observations from a re-analysis of the deposited data

How the results depend on the processing

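Other settings for the peaks (a minimum of 5 for −log10 q or for fold, equal numbers of peaks, without the top 1% by fold), the window (500 bp, 3 kb, any part of the peak, listed starts only) and neighbours (chosen after seeing the data) left 28 to 43 genes marked in H3.3K27M, 27 to 42 in H3.3WT and 21 to 37 in both. Among these settings, the share of all protein-coding genes was counted for listed starts and for neighbours only. The ranges therefore do not show whether the excess over all genes holds under the other settings. In H3.3K27M alone there were 8 genes in the counts above, 5 with a window of 500 bp and 4 with listed starts only. With summits closer to another gene left out, 21 genes were marked in both lists. The CACCTG share differed by −1.54 percentage points from all promoters and by 3 from promoters of marked genes. Without the top 1% of peaks by fold, Trmt10a was marked in H3.3WT alone. That setting removed its H3.3K27M peak by construction, since the peak stood at percentile 99.3 of its list. At 5 fold and above, Nsun6 and Mettl22 had no peak left, Elp4, Pus1, Nsun5 and Mettl16 kept that of H3.3K27M alone, and Elp3 that of H3.3WT alone; Mettl15, Nsun4 and Elp2, marked in H3.3K27M alone, were lost.

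No paired analysis was possible because each genotype has 1 library and the values come from no test. The lists show nothing of signal below the peak caller's threshold, and they differ in length, with 8272 peaks in H3.3K27M and 6920 in H3.3WT.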
